A study of Mus musculus with 21 samples.

Results

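The genes described here are 9 transcripts at the junction of PI3K signalling and the FOXO transcription factors: the factors Foxo1, Foxo3 and Foxo4, and the genes Irs2, Pik3ip1, Ccng2, Klf2, Tsc22d3 and Txnip, which active PI3K signalling keeps low in many cells. They were chosen by name, with earlier results of these data known. Their rows were looked up in the 4 tables of log2 CPM, the reads of a gene scaled to a common library size. Of the 9 genes, 7 have values, out of 14698 genes listed in at least 1 table. Foxo3, Foxo4, Pik3ip1, Ccng2, Tsc22d3 and Txnip are in all 4 tables, and Irs2 is in the 2 tables of the 6 h treatments. Foxo1 and Klf2 were not analysed here.

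The libraries came from Ba/F3 cells, a mouse interleukin-3 dependent pro-B cell line, that express JAK2-V617F, an active mutant kinase introduced by retroviral transfer. The mutant was carried by the treated and the DMSO cells alike, and the untransformed parental line was not part of these comparisons. There were 7 groups of 3 libraries. DMSO-treated, CHZ868-treated and ruxolitinib-treated cells were harvested after 6 h with solvent or with 1 μM inhibitor. Ruxo-wash and CHZ868-wash cells were exposed to 1 μM inhibitor for 1 h, washed, and kept for 6 h without it, each beside a DMSO-wash group of its own. Ruxolitinib is a type I JAK inhibitor, which binds the active form of the kinase, and CHZ868 is a type II inhibitor, which binds the inactive form. Replicates carry separate numbers in the labels, which do not say whether they were separate cultures, so p-values measure the spread between these libraries.

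In cells with active PI3K, the kinase AKT phosphorylates FOXO proteins, which are then held in the cytoplasm by 14-3-3 proteins. When the pathway is quiet, FOXO proteins enter the nucleus and switch on genes of cell cycle exit, stress defence and energy saving, some of which feed back on PI3K itself. JAK2 drives PI3K as well as STAT5 in blood cells. Transcripts of FOXO targets can depend on where FOXO proteins are as well as on how much FOXO mRNA there is. These libraries measure RNA only, so neither PI3K activity nor the place of FOXO proteins was tested.

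Where whole reads could be recovered, in 3 of the 4 tables, libraries held 7880000 to 10670000 reads per library on the listed genes, and the depth of the ruxo-wash table is unknown. Values in different tables are not on one scale. Mitochondrial transcripts made up 1.36 to 1.42% of CPM in DMSO-treated, 4.93 to 6.37% in CHZ868-treated and 1.70, 3.53 and 1.72% in ruxolitinib-treated libraries, and replicate 3 of the DMSO-wash group of the CHZ868 experiment had 5.33% against 2.84 and 2.27% in replicates 1 and 2. The part of these shares in the results was not tested. Of the pro-B markers, Cd79a and Cd79b were listed, at 21.4 to 44.8 CPM summed, while Ebf1, Pax5, Vpreb1, Igll1, Dntt and Il7r were not. None of 4 T cell markers was listed. The 4 erythroid markers, summed, had 544 to 590 CPM in DMSO-treated, 726 to 765 in CHZ868-treated and 779 to 1130 in ruxolitinib-treated libraries. After washout their sum was 3290 to 3380 CPM in ruxo-wash against 3820 to 3870 in its DMSO-wash libraries, and 336 to 410 in CHZ868-wash against 248 to 331. Gene by gene the 4 did not move together after washout. Their log2 differences ran from -0.21 to 0.23 after ruxolitinib washout (median 0.01) and from -0.57 to 0.78 after CHZ868 washout (median -0.06). The part of these markers in the results was not tested either.

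A pair of the genes is shown by the stretch before their start, because Irs2 had the largest difference of all members and Txnip the highest level. The sequences are RefSeq promoter windows on GRCm38.p6, written 5′ to 3′ along the gene and limited to the 250 bases before the RefSeq start. The gene positions given further on are from GENCODE M21, whose starts can differ: the RefSeq start of Irs2 lies 471 bases upstream of the GENCODE start, and those of Txnip coincide. Capitals mark a match to a forkhead motif (GTAAACA), a STAT motif (TTCNNNGAA) or an E-box (CACGTG), searched on both strands. The E-box is its own reverse complement, and no matches overlapped. The first window is chr8:11008930-11009179 on the minus strand and the second is chr3:96557707-96557956 on the plus strand.
Irs2: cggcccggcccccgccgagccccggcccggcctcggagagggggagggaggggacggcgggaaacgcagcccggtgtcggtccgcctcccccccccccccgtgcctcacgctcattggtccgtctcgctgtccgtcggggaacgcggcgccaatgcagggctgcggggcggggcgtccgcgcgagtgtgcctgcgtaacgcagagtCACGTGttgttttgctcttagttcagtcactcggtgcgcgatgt
Txnip: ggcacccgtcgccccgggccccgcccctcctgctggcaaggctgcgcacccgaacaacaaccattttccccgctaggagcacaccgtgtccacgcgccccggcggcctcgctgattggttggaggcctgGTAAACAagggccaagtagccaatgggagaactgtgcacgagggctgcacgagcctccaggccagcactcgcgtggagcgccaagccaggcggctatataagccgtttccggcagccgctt
The Irs2 window holds 1 E-box, which begins 44 bases before the RefSeq start, and neither of the other motifs. The Txnip window holds 1 forkhead motif, which begins 121 bases before its start. Among all 32851 promoter windows of this length, 3.17% hold the forkhead motif, 7.02% the STAT motif and 6.02% the E-box. Of 10 windows for 8 of the 9 genes, the other match was a STAT motif 207 bases before 1 of the 3 RefSeq starts of Tsc22d3. By the GENCODE annotation 2 of these windows, those of Pik3ip1 and Ccng2, lie wholly within exons of the gene, and 5 do so in part. Foxo4 has no entry. A match describes letters in a window and was not tested against binding.

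Per kilobase of exon, the level in DMSO-treated cells was highest for Txnip, a binding partner of thioredoxin that also slows glucose uptake, at 7.60 ± 0.01 log2 CPM per kb (SD, n = 3). Next came Ccng2, an unconventional cyclin found in cells that leave the cycle, at 4.31 ± 0.04, and Foxo3 at 3.93 ± 0.08. Foxo4 stood at 2.73 ± 0.07 on this scale. Pik3ip1, a membrane protein that restrains the catalytic subunit of PI3K, stood at 1.40 ± 0.07. Tsc22d3, which encodes the glucocorticoid-induced protein GILZ, stood at 1.34 ± 0.31, and these neighbours overlapped. Irs2, the adaptor that carries insulin and cytokine receptor signals to PI3K, was lowest at 0.24 ± 0.24. All other neighbours in this order were apart from each other in the 3 libraries.

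**Figure D1:**
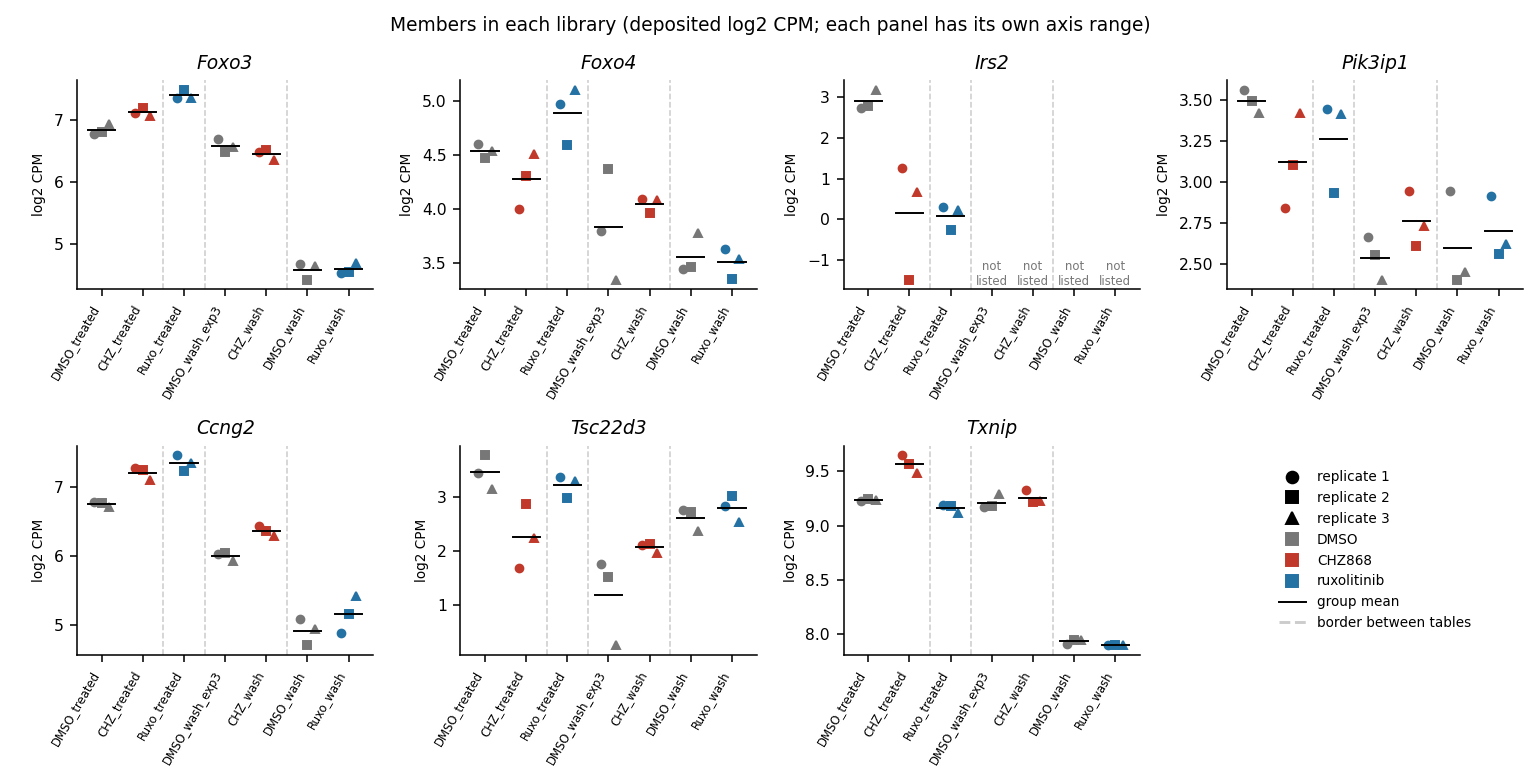
Deposited log2 CPM of each member (vertical axis) in every library of the 7 groups (horizontal axis), with 1 symbol per replicate, a black bar for the group mean and dashed lines between tables. Irs2 is at or below 1.27 in every inhibitor library of the 6 h tables and at or above 2.75 in every DMSO-treated library, and levels on either side of a dashed line are not on one scale.

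The first comparison asked how 6 h of CHZ868 changed the members. Irs2 fell 6.77-fold and Tsc22d3 fell 2.29-fold, while Ccng2, Txnip and Foxo3 rose by 1.37, 1.26 and 1.22-fold. In RNA from whole cultures, fewer cells with a transcript and less of it per cell cannot be told apart. In all, 5 of the 7 members passed the threshold (limma-trend, Benjamini-Hochberg adjusted p under 0.05 over 11670 genes), 3 higher and 2 lower. Of all genes in the table, 53.2% passed, 26.8% higher and 26.4% lower, so a call was common in this comparison and the count of 5 says little about the members as a group.

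Among the FOXO factors, Foxo3 (ENSMUSG00000048756.11, chr10:42181841-42276755, minus strand, GRCm38) had 6.78, 6.81 and 6.94 log2 CPM in DMSO-treated libraries and 7.12, 7.20 and 7.07 in CHZ868-treated libraries. Every CHZ868-treated library was above every DMSO-treated library, as for 59.7% of all genes in 1 direction or the other. The rise was 0.29 on the log2 scale (SE 0.07, limma adjusted p = 0.00276). Foxo4 (ENSMUSG00000042903.8, chrX:101254528-101260873, plus strand) had 4.60, 4.47 and 4.53 log2 CPM with DMSO and 4.0, 4.30 and 4.51 with CHZ868. Replicate 3 of the CHZ868-treated group lay among the DMSO values. The difference of -0.26 (SE 0.15) did not pass (limma adjusted p = 0.152), and it passed without that library (-0.38, adjusted p = 0.039).

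Of the genes that act on PI3K itself, Irs2 (ENSMUSG00000038894.7, chr8:10984681-11008458, minus strand) had 2.75, 2.78 and 3.19 log2 CPM in DMSO-treated and 1.27, -1.50 and 0.67 in CHZ868-treated libraries. These correspond to 57, 68 and 84 reads against 22, 1 and 11 reads, so the fall rests on few reads. It was 2.76 on the log2 scale (a difference of -2.76, SE 0.55, limma adjusted p = 0.00063). Irs2 had 2.4, 0.354 and 1.59 CPM in CHZ868-treated libraries, so the row stayed listed through libraries where it is high. The adjusted p takes no account of this. CHZ868-treated replicate 2, with its single read, widened the fall, and without it the difference was -1.94 (adjusted p = 0.000451). Under log2(CPM + 1) it was -1.89. A non-coding transcript on the opposite strand shares 162 exon bases with Irs2, and no source used here says whether strand was used in counting.

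Pik3ip1 (ENSMUSG00000034614.14, chr11:3330401-3342971, plus strand) had 3.56, 3.49 and 3.42 log2 CPM with DMSO and 2.84, 3.10 and 3.42 with CHZ868. As for Foxo4, replicate 3 of the CHZ868-treated group reached the DMSO values while replicates 1 and 2 lay below. The difference was -0.37 (SE 0.20, limma adjusted p = 0.14), and without that library it was -0.52 and passed (adjusted p = 0.0436). That library also had the highest mitochondrial share of the series, 6.37%. A transcript on the opposite strand, Gm12592, shares 91 exon bases with Pik3ip1.

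Among the effectors, Ccng2 (ENSMUSG00000029385.14, chr5:93267257-93276231, plus strand) had 6.79, 6.77 and 6.71 log2 CPM with DMSO and 7.27, 7.25 and 7.10 with CHZ868. The groups did not overlap, and the rise of 0.45 (SE 0.07) passed (limma adjusted p = 6.42e-05). Txnip (ENSMUSG00000038393.14, chr3:96557957-96561883, plus strand) had 9.23, 9.25 and 9.24 log2 CPM with DMSO, a spread of 0.02, and 9.65, 9.57 and 9.49 with CHZ868. Its rise of 0.33 (SE 0.06) passed (limma adjusted p = 0.000191), though with quantile normalization it was 0.15. An antisense gene, Gm15441, shares 606 exon bases with Txnip, and reads from the shared stretch cannot be assigned to either strand from these values.

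Tsc22d3 (ENSMUSG00000031431.13, chrX:140539528-140600659, minus strand) had 3.44, 3.77 and 3.15 log2 CPM in DMSO-treated and 1.68, 2.86 and 2.23 in CHZ868-treated libraries, from 93, 137 and 82 reads against 30, 53 and 36 reads. The groups were apart but each was widely spread. The fall was 1.20 on the log2 scale (a difference of -1.20, SE 0.29, limma adjusted p = 0.00292), and it passed in each of the 14 alternatives tried, with differences from -1.50 to -0.91.

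**Figure D2:**
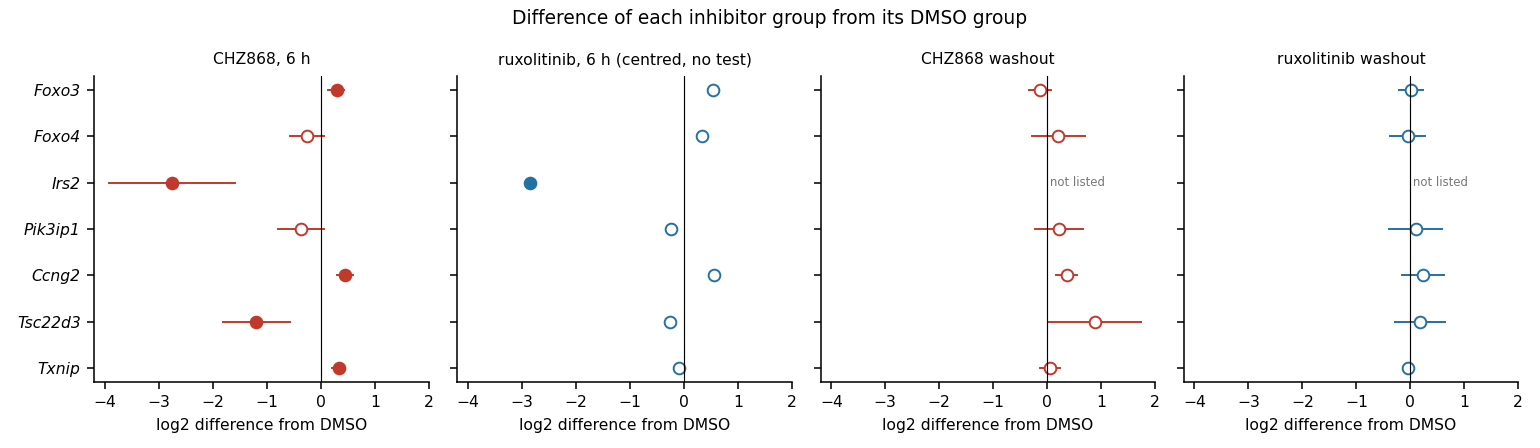
Log2 difference of each inhibitor group from its DMSO group (horizontal axis) for each member (vertical axis). Lines are 95% confidence intervals from limma and filled circles passed the threshold, except that the ruxolitinib 6 h panel has no test and a filled circle there marks groups that did not overlap and differed by at least 0.58. After washout no member passed, and the values lay between -0.13 and 0.89.

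With ruxolitinib for 6 h, Irs2 was again the member with the largest difference, 7.20-fold lower than with DMSO. Ccng2 and Foxo3 were 1.48-fold and 1.45-fold higher. Ruxolitinib-treated cells are in a table of their own, so the median of the 11624 genes held by both tables was subtracted from every library, and the comparison carries no test. Both 6 h comparisons use the same DMSO-treated libraries. Genes whose groups did not overlap and whose means differed by at least 0.58 log2 units made up 11.5% of all genes, 4.2% higher and 7.32% lower. Among the members 1 of 7, Irs2, met this.

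For Irs2, the ruxolitinib-treated libraries had 0.31, -0.28 and 0.22 log2 CPM as deposited, from 10, 6 and 9 reads. After centring the difference was -2.85, with the 3 values all far under those of DMSO-treated libraries, and without ruxolitinib-treated replicate 2 it was -2.68. The value was -2.24 with quantile normalization and -2.06 under log2(CPM + 1). Irs2 is near 1 CPM in these libraries, so the row stayed in the tables through libraries where it is high.

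Foxo3 had 7.36, 7.49 and 7.36 log2 CPM with ruxolitinib, all above DMSO-treated libraries, and a centred difference of 0.54. Ccng2 had 7.46, 7.23 and 7.34, also all above, and a centred difference of 0.56. Both lay just under the bound of 0.58. Ccng2 came to 0.61 without ruxolitinib-treated replicate 2, which has the raised mitochondrial share, while Foxo3 came to 0.48. With each library left out in turn, Foxo3 ranged from 0.48 to 0.58 and Ccng2 from 0.51 to 0.61.

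The remaining members differed less. Foxo4 had 4.97, 4.59 and 5.10 log2 CPM, a centred difference of 0.33 with overlapping groups. Pik3ip1 had 3.44, 2.93 and 3.41, and its difference of -0.25 was -0.09 without replicate 2. Tsc22d3 had 3.37, 2.98 and 3.30, a difference of -0.26 with overlapping groups. In replicate 2 these 3 genes, like Irs2 and Ccng2, had their lowest ruxolitinib-treated values. Txnip had 9.19, 9.18 and 9.12 log2 CPM, a centred difference of -0.10 with every library below those with DMSO. Groups failed to overlap for 44.6% of all genes in this comparison, and for 5 of the 7 members. Pik3ip1 is counted among the 5 by a margin too small to print. Its highest centred ruxolitinib-treated value and its lowest centred DMSO-treated value were both -1.83.

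Set side by side after centring, both at 1 μM and 6 h, the inhibitors gave much the same values for some members and separate values for others. The ranges of the CHZ868-treated and ruxolitinib-treated libraries did not overlap for Foxo3, Foxo4, Tsc22d3 and Txnip, as for 35.3% of all genes, and no test was run across the tables. Tsc22d3 was 0.91 log2 units higher with ruxolitinib than with CHZ868. Foxo4 was 0.57 higher and Foxo3 0.22 higher. Txnip was 0.46 lower with ruxolitinib, above the DMSO-treated mean in all 3 CHZ868-treated libraries and below it in all 3 ruxolitinib-treated libraries. For Irs2, Ccng2 and Pik3ip1 the ranges overlapped, with ruxolitinib minus CHZ868 differences of -0.12, 0.09 and 0.09. The Irs2 overlap rests on CHZ868-treated replicate 2, with 1 read and a centred value of -6.73. Replicates 1 and 3 of that group had -3.95 and -4.54, above every ruxolitinib-treated value (-5.54 to -4.96).

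**Figure D3:**
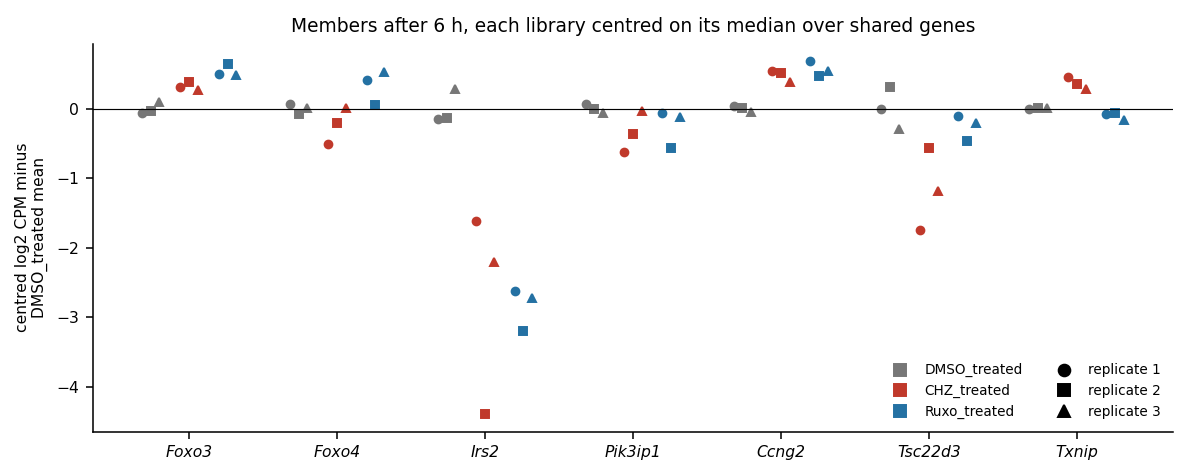
Centred log2 CPM minus the DMSO-treated mean (vertical axis) for each member (horizontal axis) in the 9 libraries of the 6 h treatments, with 1 symbol per replicate and 1 color per group. Irs2 is low with both inhibitors, Tsc22d3 is lowest with CHZ868, and Txnip lies on opposite sides of the line with the 2 inhibitors.

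After ruxolitinib washout none of the 6 members listed passed the threshold. Of all 13085 genes 3 passed, which is 0.0229%, and 7.03% had an unadjusted p under 0.05 (limma), as did 0 of the 6 members. Foxo3 had 4.53, 4.54 and 4.68 log2 CPM in ruxo-wash and 4.66, 4.41 and 4.63 in DMSO-wash libraries, a difference of 0.02 with a 95% interval from -0.21 to 0.24. Ccng2 had 4.89, 5.16 and 5.43 against 5.09, 4.71 and 4.94. This was the largest difference of a member, 0.24 (SE 0.16, limma adjusted p = 0.816), with overlapping groups and an interval from -0.15 to 0.63.

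Tsc22d3 had 2.82, 3.02 and 2.53 log2 CPM in ruxo-wash and 2.75, 2.71 and 2.36 in DMSO-wash libraries, a difference of 0.18 (interval -0.28 to 0.64). Pik3ip1 differed by 0.10 (interval -0.39 to 0.58) and Foxo4 by -0.05 (interval -0.37 to 0.27). Txnip was the most even member here. It had 7.90 log2 CPM in each ruxo-wash library and 7.91, 7.95 and 7.95 in DMSO-wash libraries, apart by a margin of hundredths, as were 12.9% of all genes, and its difference of -0.04 did not pass (limma adjusted p = 0.84).

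After CHZ868 washout none of the 6 members passed either, where 4.02% of all genes did, and 2 of the 6, Ccng2 and Tsc22d3, had an unadjusted p under 0.05 against 24.4% of all genes. Limma with voom weights on the recovered reads also called 0 members. Ccng2 had 6.43, 6.37 and 6.29 log2 CPM in CHZ868-wash and 6.03, 6.05 and 5.93 in DMSO-wash libraries. Its groups were apart, as for 31% of all genes, and the difference was 0.36 (SE 0.09, interval 0.16 to 0.56, limma adjusted p = 0.0517). It passed with quantile normalization (0.38) and without DMSO-wash replicate 2 (0.38) or replicate 3 (0.32).

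Tsc22d3 had 2.11, 2.12 and 1.96 log2 CPM in CHZ868-wash libraries and 1.75, 1.52 and 0.25 in DMSO-wash libraries, where replicate 3 had 8 reads. That is the library with the high mitochondrial share. The difference was 0.89 (SE 0.38, limma adjusted p = 0.185), and without that library it was 0.42. Foxo4 had 4.09, 3.96 and 4.08 against 3.79, 4.37 and 3.34, a difference of 0.21 that became -0.04 without the same library. Foxo3, Pik3ip1 and Txnip differed by -0.13, 0.22 and 0.05 with overlapping groups.

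The difference between 2 effects was tested on 12 libraries each. The CHZ868 effect at 6 h and the CHZ868 washout effect differed for 3 of 6 members, where 47.1% of all genes did. Tsc22d3 fell at 6 h, its washout difference was 0.89 and did not pass, and the 6 h effect minus the washout effect was -2.08 on the log2 scale (SE 0.51, limma adjusted p = 0.00323). Over 20 alternatives that value ranged from -2.38 to -1.62, and it passed in each. For Foxo3 the 6 h effect was 0.42 higher (SE 0.12, adjusted p = 0.00696). For Txnip it was 0.28 higher (SE 0.10, adjusted p = 0.0275), a call lost in 10 of 20 alternatives, and the difference was 0.08 with quantile normalization. Ccng2 gave 0.09 (SE 0.11, adjusted p = 0.531), Pik3ip1 -0.59 (adjusted p = 0.0903) and Foxo4 -0.47 (adjusted p = 0.186). The 2 effects come from separate experiments and differ in exposure, so treatment and experiment cannot be told apart.

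The ruxolitinib and CHZ868 washout effects differed for 0 of the 6 members (limma), and 0 had an unadjusted p under 0.05, where 1.9% and 18.9% of all genes did. The largest such difference was -0.70 for Tsc22d3 (ruxolitinib minus CHZ868, interval -1.71 to 0.30), and the others lay between -0.26 for Foxo4 and 0.15 for Foxo3. The DMSO-wash groups of the 2 experiments stood far apart in the tables. Their erythroid markers summed to 3820 to 3870 CPM in the ruxolitinib experiment and 248 to 331 in the CHZ868 experiment, and the 4 listed hematopoietic markers (Ptprc, Csf2rb, Csf2rb2 and Il3ra) to 378 to 398 and 1710 to 1900 CPM. The tables are not on one scale, and the part of these gaps in the comparison of effects was not tested.

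Genes around the members were described from 5 lists by their counts and medians. Of 36 further FOXO target genes, 25 were in the CHZ868-treated table, where 12 rose, 6 fell and 7 did not pass, beside 26.8% of all genes that rose, 26.4% that fell and 53.2% called in all. Their median difference was 0.17, beside -0.01 over all genes. Cat, the peroxide-degrading enzyme catalase, rose by 1.40, from 6.45 ± 0.08 to 7.85 ± 0.05 log2 CPM (SD, n = 3 each, limma adjusted p = 2.94e-10). Cited2, a CBP-binding regulator, rose by 1.20 (adjusted p = 2.85e-10), and Rbl2, which encodes the pocket protein p130 of quiescent cells, rose by 0.98 (adjusted p = 1.12e-08). Tnfsf10, the death ligand TRAIL, went the other way and fell by 2.53, from 4.24 ± 0.26 to 1.71 ± 0.31 log2 CPM (adjusted p = 4.41e-07).

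With ruxolitinib, 7 of these 25 genes were apart by at least 0.58, 5 higher and 2 lower, beside 11.5% of all genes, 4.2% higher and 7.32% lower. The list's median was 0.24 beside 0.04 over all genes. Tnfsf10 was lower by the most, a centred difference of -2.74. Ulk1, the kinase that starts autophagy, was 0.83 higher, Rbl2 0.76 higher and Mxi1, a MYC antagonist, 0.73 higher.

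Among 25 PI3K and AKT signalling genes, 23 were tested with CHZ868, of which 6 rose and 8 fell (median -0.04, beside -0.01 over all genes). These 14 calls in 23 stand beside 53.2% of all genes called. Pik3cd, the catalytic subunit typical of white blood cells, fell by 1.04 (limma adjusted p = 1.65e-08). The regulatory subunit Pik3r1 rose by 0.66 (adjusted p = 2.06e-06). The adaptor Gab1 fell by 0.60 (adjusted p = 0.0315), a call lost in 5 of 14 alternatives, among them those without DMSO-treated replicate 1, 2 or 3 and without CHZ868-treated replicate 2. With ruxolitinib 3 of 23 were apart, beside 11.5% of all genes: Pik3r6 0.64 higher, Inpp5d 0.59 higher and Sgk3 0.81 lower (a difference of -0.81). Each of the 3 came under the bound in some alternative. Inpp5d was 0.51 with quantile normalization and 0.56 without ruxolitinib-treated replicate 3 or DMSO-treated replicate 3, Sgk3 was -0.57 and -0.52 without the same libraries, and Pik3r6 was 0.57 without ruxolitinib-treated replicate 2.

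All 15 genes listed here as regulators of FOXO proteins were tested. With CHZ868, 10 rose and 3 fell (median 0.29, beside -0.01 over all genes), where 26.8% of all genes rose and 26.4% fell. Of the 7 genes of 14-3-3 proteins in this list, 5 rose and 2 fell. Ywhae rose by 1.19 (limma adjusted p = 2.92e-10) and Ywhah by 1.02 (adjusted p = 1.99e-09), while Ywhag fell by 0.83 (adjusted p = 5.15e-08) and Sfn, at a low level, fell by 1.00 (adjusted p = 0.0281), a call lost in 5 of 14 alternatives, among them those without DMSO-treated replicate 1 or 2 and without CHZ868-treated replicate 2. The other 3 that rose did so by 0.20 to 0.48, and the smallest of these, Ywhaz (named after its values were seen), was at 0.04 with quantile normalization and did not pass. With ruxolitinib 1 of the 15 was apart, beside 11.5% of all genes. It was Foxm1, 0.58 higher, which came to 0.52 with quantile normalization, 0.56 without DMSO-treated replicate 1 and 0.46 without ruxolitinib-treated replicate 2.

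Of 15 relatives of the members in sequence, 10 were tested with CHZ868, and 5 rose and 2 fell (median 0.12), beside 53.2% of all genes called. Klf3 rose by 1.36, Ccng1, the relative of Ccng2 and a p53 target, rose by 0.77, Tsc22d1 rose by 0.52 and Arrdc2, an arrestin-domain relative of Txnip, fell by 0.93. Klf3 was also the 1 relative apart with ruxolitinib, 1.11 higher. Of 10 glucose-sensing and glucocorticoid-responsive genes, 7 were tested, and 2 rose and 1 fell (median 0.04), again beside 53.2% of all genes. Fkbp5, which like Tsc22d3 is a target of the glucocorticoid receptor, fell by 0.73 (limma adjusted p = 2.67e-06), while Dusp1, another target, rose by 0.82 and the receptor Nr3c1 rose by 0.37. None of the 7 was apart with ruxolitinib.

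**Figure D4:**
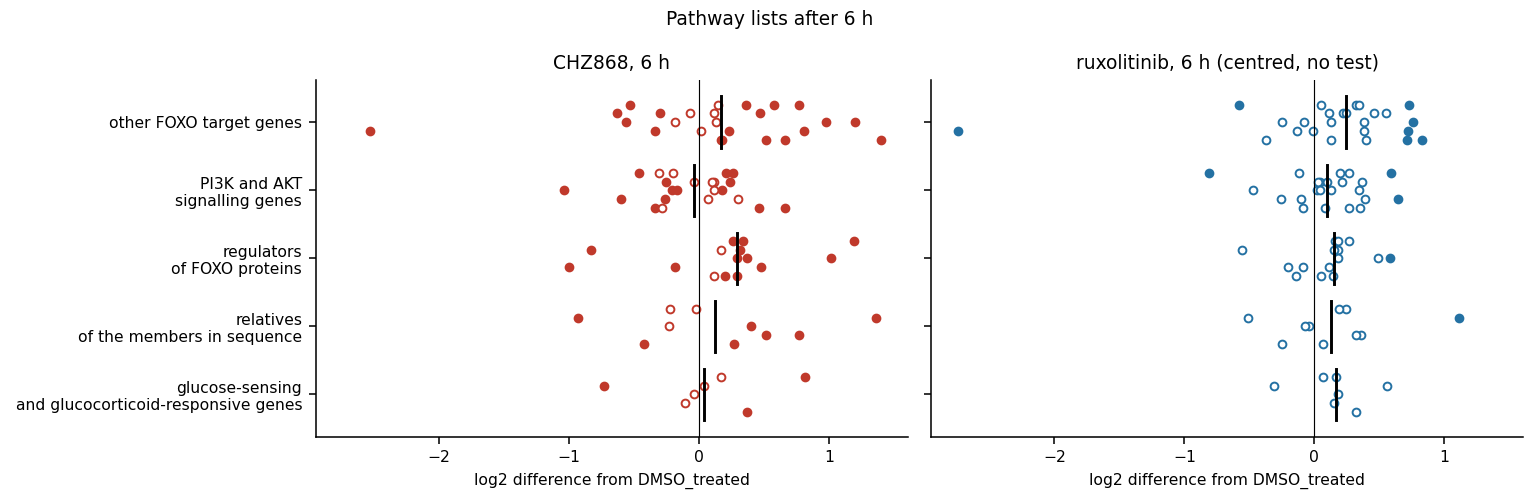
Log2 difference from DMSO-treated cells (horizontal axis) of each gene in the 5 lists (vertical axis), for CHZ868 and, after centring and with no test, for ruxolitinib. Filled circles passed the threshold (CHZ868) or were apart by at least 0.58 (ruxolitinib), and black bars are list medians, 0.17 and 0.24 for the further FOXO targets.

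After ruxolitinib washout 0 genes of the 5 lists passed (limma). In the order in which the lists were given, 4 of 25, 1 of 22, 2 of 15, 1 of 11 and 1 of 7 had an unadjusted p under 0.05, as did 7.03% of all genes. After CHZ868 washout 1 of 25, 1 of 23, 1 of 15, 1 of 9 and 0 of 7 passed, beside 4.02% of all genes. In the same order, 10 of 25, 2 of 23, 3 of 15, 2 of 9 and 1 of 7 had an unadjusted p under 0.05 (limma), beside 24.4% of all genes. Cited2 differed by -0.63 (limma adjusted p = 0.0427), Pdpk1, the kinase that activates AKT, by 0.33 (adjusted p = 0.0496), Foxm1 by -0.43 (adjusted p = 0.0418) and Arrdc3 by 0.40 (adjusted p = 0.0408). None of these 4 calls held without CHZ868-wash replicate 1, 2 or 3, or without DMSO-wash replicate 1. For Cited2 the washout difference was opposite in sign to that at 6 h, and the difference between the effects was 1.83 (adjusted p = 2.89e-07).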

How the data were processed

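RNA-seq of 21 libraries in 7 groups of 3 was deposited as 4 tables. The authors removed genes of low CPM, normalized by TMM and deposited log2 CPM values to which a small constant had been added. The methods name kallisto and GRCm38, whereas the submitters' processing notes name STAR 2.7.3a, edgeR 4.0.16 and GRCm39, and the difference was not resolved. Among genes listed for CHZ868-treated cells, 0 had all DMSO-treated libraries under 1 CPM and 5 had all CHZ868-treated libraries under it.

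Comparisons within a table used limma-trend (limma 3.58.1, R 4.3.3) with Benjamini-Hochberg adjustment over all genes. Differences of effects used 11175 or 10078 shared genes. Whole reads were recovered from low values of 3 tables (100% within 0.1 of a read), but not from the ruxo-wash table (19.1 to 22.5%). Methods were tested on simulated data. Members and lists were chosen with earlier results of these data known. All members are named, and in each list and comparison up to 4 genes past the threshold with the largest differences. No member met the rule for naming genes of like pattern. Positions and exon lengths came from GENCODE M21 (GRCm38). Near copies were sought with BLAST 2.17.0 (at least 200 bases at 90% identity): besides the antisense genes, none was found for the 7 members. Alternatives were no mean-variance trend, centring, quantile normalization, log2(CPM + 1), a mean log2 CPM of at least 1, a fold bound, a replicate block, voom on recovered reads and leaving out each library.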

Additional observations from a re-analysis of the deposited data

Results flagged for a closer look

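For 3 members the CHZ868 effect after 6 h differed from the CHZ868 washout effect by the test of the difference itself (limma): Tsc22d3 by -2.08, Foxo3 by 0.42 and Txnip by 0.28 log2 units. The first ranged from -2.38 to -1.62 over 20 alternatives. Its libraries rest on few reads, from 8 in a DMSO-wash library to 137 in a DMSO-treated library. The Txnip call was lost in 10 of 20 alternatives. Txnip was 0.46 lower after 6 h of ruxolitinib than after 6 h of CHZ868 (a centred difference of -0.46), with all CHZ868-treated libraries above the DMSO-treated mean and all ruxolitinib-treated libraries below it, and this difference was not tested. With 3 libraries a group, no library was tested as an outlier.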

How the results depend on the processing

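Counts of calls were within 1.5 times the reported ones except as follows. With a log2 fold change of at least 0.58, 2941 genes and 2 members passed for CHZ868 at 6 h, 0 genes after ruxolitinib washout, 174 after CHZ868 washout, 94 for the difference of washout effects and 1 member for the difference of CHZ868 effects. Without the mean-variance trend, 9 genes passed after ruxolitinib washout, 0 after CHZ868 washout and 14 for the difference of washout effects. With the replicate number as a block, 0 genes passed after ruxolitinib washout and 6 for the difference of washout effects, while same-numbered libraries did not deviate together (r from -0.07 to 0.05) and in no comparison did every library correlate best with its own number. The block ended the Txnip call on the difference of CHZ868 effects (0.28, limma adjusted p = 0.063) and the Pdpk1 call after CHZ868 washout, and changed no other call of a gene named here. With quantile normalization 1 member, Ccng2, passed after CHZ868 washout. Leaving out 1 library gave 0 to 1 genes after ruxolitinib washout, 0 to 1426 genes and 0 to 1 members after CHZ868 washout (1426 without DMSO-wash replicate 3, 1298 without replicate 2, and 0 or 1 without any other), 5 to 628 genes for the difference of washout effects, and 1 to 2 members apart after 6 h of ruxolitinib, where the deposited values without centring gave 2.

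Directions that turned belonged to members that had not passed. Leaving out 1 library, after ruxolitinib washout the difference ranged from -0.06 to 0.06 for Foxo3 (below 0 on leaving out ruxo-wash replicate 3 or replicate 2 of DMSO-wash), from -0.11 to 0.06 for Foxo4 (above 0 on leaving out ruxo-wash replicate 2 or replicate 3 of DMSO-wash) and from -0.01 to 0.27 for Pik3ip1 (at or below 0 on leaving out ruxo-wash replicate 1 or replicate 2 of DMSO-wash). After CHZ868 washout it ranged from -0.04 to 0.48 for Foxo4 (below 0 without DMSO-wash replicate 3). The difference of washout effects ranged from -0.25 to 0.02 for Ccng2 (above 0 without ruxo-wash replicate 1) and from -0.23 to 0.05 for Pik3ip1 (above 0 without the ruxolitinib experiment's DMSO-wash replicate 1). With quantile normalization the difference of CHZ868 effects was -0.02 for Ccng2. The cause was not tested. Where reads could be recovered, Irs2 had 1 to 84 reads per library, Tsc22d3 8 to 137 and Pik3ip1 42 to 113, which limits the precision of each.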
